A study of Mus musculus with 6 samples.

Results

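Integrins are cell surface receptors made of 1 alpha and 1 beta chain, and laminins are trimers of an alpha, a beta and a gamma chain that build the basement membrane. All 32 genes of the deposited table named as an integrin alpha chain (13), an integrin beta chain (8) or a laminin chain (11) make up the set described here, chosen by symbol from 49492 rows. RNA was measured by poly(A) sequencing in palatal shelves, the outgrowths that form the roof of the mouth, from C57BL mouse embryos at E14.5. The 3 controls were Prmt1 fl/fl, with both copies of the arginine methyltransferase gene Prmt1 flanked by loxP sites. The 3 deletion libraries were Wnt1-Cre; Prmt1 fl/fl. Wnt1-Cre acts in neural crest cells, the source of most mesenchyme of the palate, and not in the lineages of palatal epithelium and skeletal muscle. No group carried Cre without the floxed alleles, and no label states that each library stems from an embryo of its own, so p-values cover only the spread between these samples, part of which may be technical. Libraries are named by the numbers in the table's columns: 212, 213 and 220 for control, 208, 211 and 221 for deletion.

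The chains are shared out among tissues. Basal epithelium holds on to its basement membrane through hemidesmosomes, in which integrin alpha 6 beta 4 binds laminin-332, a trimer that holds the Lama3 and Lamb3 products. Muscle fibres bind laminin-211 (Lama2 with Lamb1 and Lamc1) through integrin alpha 7 beta 1. Mesenchymal cells carry receptors for collagen (the products of Itga1, Itga10 and Itga11 with integrin beta 1) and for fibronectin and related ligands (Itga5, Itga8 and Itgav). The roles used below are epithelial (9 genes), muscle (2), mesenchymal (8), blood (4) and broad or other (9), and several epithelial chains, such as Itga3, Itga6 and Lama5, are also made elsewhere.

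Libraries held 44919889 to 50022829 estimated counts. Prmt1 measured 257.86, 249.74 and 246.26 CPM (counts relative to library size, scaled by TMM) in controls 212, 213 and 220 and 200.90, 205.51 and 217.32 CPM in deletion 208, 211 and 221 (log2 fold change -0.27, edgeR adjusted p = 0.0113, or 0.177 with embryo sex as a covariate). It did not pass without 213, 208 or 211 (-0.28 to -0.25, edgeR adjusted p = 0.0567 to 0.0674). Controls 212 and 213 stand apart from the other 4 libraries in sex: Xist was at 15.5 and 16.0 CPM there and at 3384 to 4487 CPM in control 220 and the deletion libraries, so control 220 came from another embryo than 212 and 213. With sex as a covariate the contrast is deletion against control 220 alone. Mesenchymal markers of the palate were 8 genes including Osr2, Shox2, Pax9 and Tbx22, with Prrx1 and Pdgfra at the highest levels. They summed to 1981 to 2183 CPM in controls and 2122 to 2200 CPM after deletion. Of these markers 0 of 8 passed, where 7.01% of all tested genes did. Among them Msx1 varied widely within both groups, at 51.7, 122.2 and 178.2 CPM in controls and 69.0, 61.1 and 188.2 CPM after deletion.

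In the deletion libraries 8 of the 32 genes fell, 1 rose and 23 did not pass the threshold of an adjusted p of 0.05 (edgeR's quasi-likelihood test, adjusted over 19284 tested genes). Of all tested genes 3.37% were called lower, 3.65% higher and 7.01% in either direction. All 32 genes passed the filter on low counts. Of the epithelial laminin-332 genes Lamb3 fell 1.67-fold and Lama3 1.30-fold, and their receptor chain Itgb4 fell 1.35-fold. Leaving out 1 library ended the call of Lama3 in 5 cases and that of Itgb4 in 4. With embryo sex as a covariate their log2 fold changes were -0.12 (Lama3) and -0.25 (Itgb4). The mesenchymal genes Itga10 (2.71-fold) and Itga8 (1.46-fold), the laminin chain Lamc3 (2.4-fold) and the leukocyte chain Itgb2 (1.78-fold) fell too. The muscle chain Itga7 rose 1.46-fold. Over the 32 genes the median log2 fold change was -0.17, against -0.00013 over all tested genes. The groups did not overlap in 12 of the 32, 11 lower and 1 higher, where 27.5% of all tested genes did not overlap (13.5% lower and 14.1% higher). The 8 lower calls became 5 without control 213, deletion 208 or deletion 211, where 1.81%, 2.77% and 3.59% of all tested genes were called in either direction, and 4 with embryo sex as a covariate, where 0.669% of all tested genes were called. Lamb3, Itga10 and Lamc3 passed in all 13 alternative analyses.

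**Figure D1:**
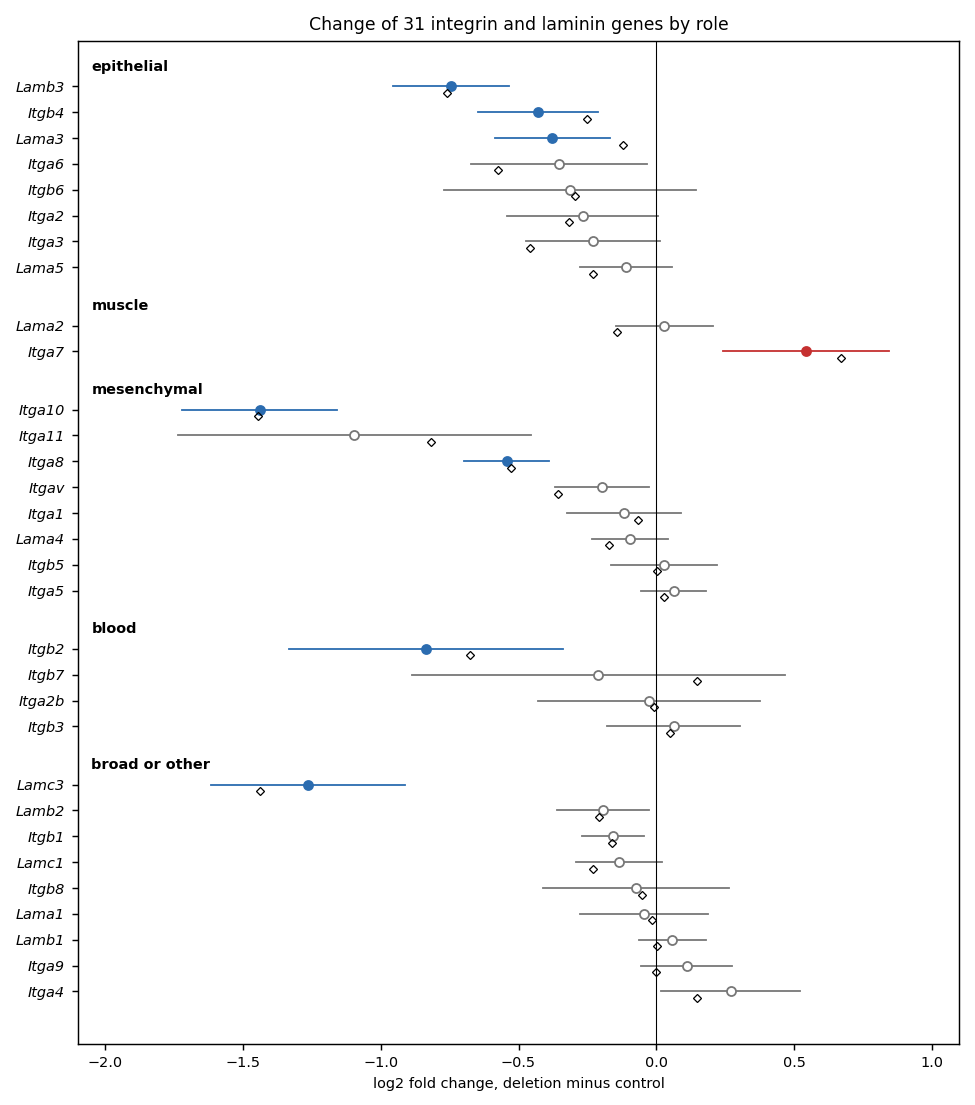
Log2 fold change (deletion minus control) of 31 of the genes, grouped by role, with 95% intervals. Filled points passed at an adjusted p under 0.05 (blue lower, red higher), open circles did not, and diamonds give the fold change with embryo sex as a covariate. All epithelial genes drawn lie below 0, Itga7 at 0.54 is the called rise, and Itga10 has the lowest value at -1.44.

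Upstream sequences are shown for an epithelial and a mesenchymal gene that passed in every alternative, the 250 bases before the RefSeq start of Lamb3 (chr1:193301744-193301993, plus strand) and of Itga10 (chr3:96645334-96645583, plus strand), both from RefSeq on GRCm38.p6 and read 5′ to 3′. This start of Lamb3 lies 94269 bases downstream of the start of the GENCODE transcript taken as principal, so the window is inside the GENCODE span of the gene, while for Itga10 both starts are the same. The RefSeq promoter table had entries for 21 of the 32 genes. Capitals mark a match to any of 4 motifs searched on both strands: TGANTCA (AP-1), CAGCTG (an E-box), TGTGGT (RUNX) and TATAAA (a core promoter box).
Lamb3: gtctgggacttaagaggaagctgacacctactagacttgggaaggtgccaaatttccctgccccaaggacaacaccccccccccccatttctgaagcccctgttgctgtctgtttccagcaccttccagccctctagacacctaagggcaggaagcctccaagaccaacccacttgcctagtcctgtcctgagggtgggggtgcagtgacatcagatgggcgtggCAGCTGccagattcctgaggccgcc
Itga10: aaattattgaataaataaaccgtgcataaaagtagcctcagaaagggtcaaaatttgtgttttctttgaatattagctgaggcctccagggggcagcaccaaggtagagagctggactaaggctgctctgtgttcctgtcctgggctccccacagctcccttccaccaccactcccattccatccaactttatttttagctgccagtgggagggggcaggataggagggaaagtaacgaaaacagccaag
The Lamb3 window held 1 CAGCTG and no other match, and the Itga10 window held no match to the 4 motifs. Of the 21 genes with an entry, 6 held CAGCTG, 1 held TGTGGT, 0 held TGANTCA and 0 held TATAAA in this window, while 13.0%, 14.0%, 6.75% and 12.4% of all 32851 promoters in the table did. Among the 6 with CAGCTG was Itga9, whose RefSeq start lies 105002 bases from the GENCODE start taken as principal. No position of the windows was in more than 1 motif.

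The epithelial question is whether the chains of the hemidesmosome and its laminin differ when Prmt1 is lost from the neural crest. Of the 9 epithelial genes 4 fell, 0 rose and 5 did not pass, where 3.37% of all tested genes were called lower. All 9 values were below 0 (median log2 fold change -0.35), as were 9649 of the 19284 tested genes. Lamb3 (chromosome 1, 193207699 to 193343878, mm10, plus strand), the beta chain of laminin-332, measured 33.5, 37.5 and 36.2 CPM in controls 212, 213 and 220 and 19.3, 20.1 and 24.6 CPM in deletion 208, 211 and 221. The highest deletion library lay well under the lowest control. Its log2 fold change was -0.74 ± 0.10 (SE; edgeR adjusted p = 0.00167), and -0.76 with sex as a covariate (edgeR adjusted p = 0.0463).

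Lama3 (chromosome 18, 12333819 to 12583013, plus strand), the alpha chain of the same trimer, was at 51.3, 51.7 and 39.9 CPM in controls and 35.9, 38.3 and 35.8 CPM after deletion. Control 220 was close to the deletion libraries here, and controls 212 and 213 stood higher. The change on the log2 scale was -0.38 ± 0.09 (SE; edgeR adjusted p = 0.0390). The call was lost without 212, 213, 208, 211 or 221 (log2 fold changes -0.41 to -0.32, edgeR adjusted p = 0.0793 to 0.176), with sex as a covariate (-0.12, edgeR adjusted p = 0.574), with limma voom (adjusted p = 0.0628) or with edgeR's non-robust fit (adjusted p = 0.0530). Itgb4 (chromosome 11, 115974709 to 116008412, plus strand), the hemidesmosome's beta chain, was at 57.9, 59.5 and 49.02 CPM in controls and 38.4, 38.3 and 47.0 CPM after deletion. Deletion 221 and control 220 came closest to each other. The log2 fold change was -0.43 ± 0.10 (SE; edgeR adjusted p = 0.0275). The gene missed the threshold without 212, 213, 208 or 211 (log2 fold changes -0.40 to -0.38, edgeR adjusted p = 0.0879 to 0.129) or with sex as a covariate (-0.25, edgeR adjusted p = 0.369).

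Itga6, whose product pairs with integrin beta 4 in hemidesmosomes and with beta 1 elsewhere, measured 104.2, 127.2 and 146.9 CPM in controls and 92.3, 93.2 and 110.5 CPM after deletion. Deletion 221 overlapped control 212, and the gene did not pass (log2 fold change -0.35, edgeR adjusted p = 0.183), although it did without control 212 (-0.47, edgeR adjusted p = 0.0241) and with the DESeq2 Wald test (adjusted p = 0.0192). The laminin and collagen receptor chains Itga3 (log2 fold change -0.23) and Itga2 (-0.27), the epithelial chain Itgb6 (-0.31) and the laminin-511 chain Lama5 (-0.11) did not pass either. Itga2 alone of these 5 had groups that did not overlap, at 8.48 to 9.62 CPM in controls and 6.79 to 8.37 CPM after deletion.

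Levels of epithelial markers moved the same way as these genes. The summed level of 10 epithelial markers (Epcam, Cdh1, Krt5, Krt14, Krt15, Krt8, Krt18, Trp63, Esrp1 and Perp) was 1366 to 1536 CPM in controls and 935 to 1191 CPM after deletion. Of these markers 5 of 10 fell, where 3.37% of all tested genes were called lower, and none was at 0. In bulk tissue, fewer cells of a type and less RNA per cell cannot be told apart. As a share of that sum, Lamb3 was at 2.18%, 2.51% and 2.65% in controls and 2.07%, 2.01% and 2.07% in deletion libraries, lower in all 3 (difference of the log2 ratio -0.25, exact two-sided permutation p = 0.1, the smallest that 3 against 3 can give). Itgb4 was at 3.59% to 3.98% and 3.82% to 4.10%, Lama3 at 2.92% to 3.46% and 3.01% to 3.84%, Itga6 at 6.78% to 10.75% and 9.27% to 9.88%, and Itgb6 at 0.230% to 0.261% and 0.206% to 0.383%, in each case with overlapping groups (exact permutation p = 0.3, 0.4, 0.5 and 0.8). The Lama5 share was higher in all deletion libraries, at 6.76% to 9.35% in controls and 9.72% to 11.1% in deletion libraries (0.39, exact permutation p = 0.1). As CPM, Lama5 was not higher (log2 fold change -0.11, groups overlapping), so its higher share reflects the lower marker sum. Ratios of this kind, with the 2 muscle ratios below, form a family of 9, and with a smallest possible p of 0.1 none can pass the threshold of 0.05.

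**Figure D2:**
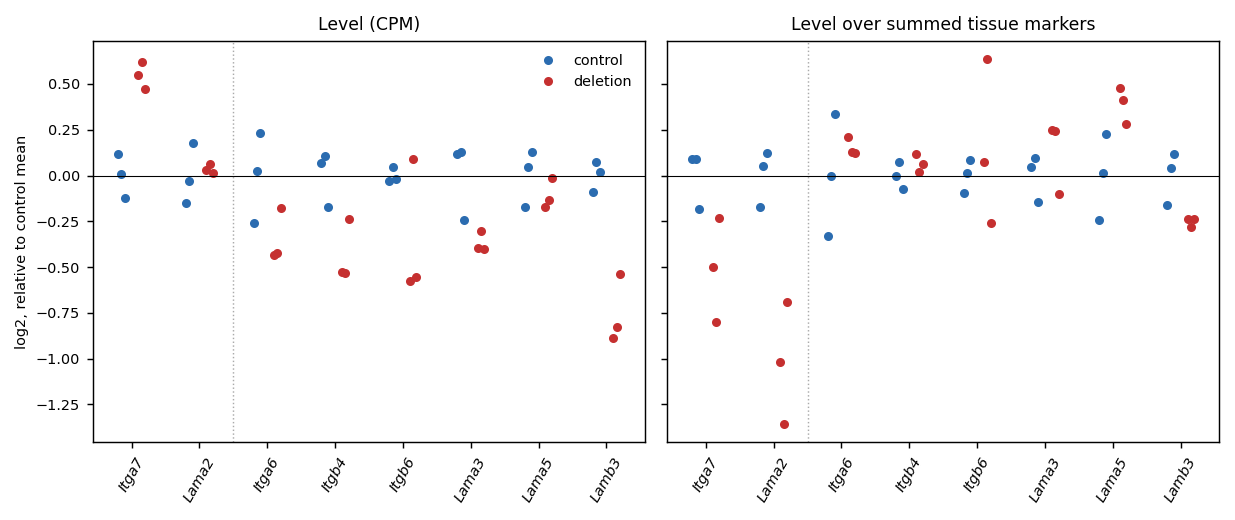
Level of 8 genes in each library on the log2 scale, relative to the control mean, as CPM (left) and as a ratio to the summed level of 10 skeletal muscle markers (left of the dotted line) or 10 epithelial markers (right of it). Blue points are control libraries and red points deletion libraries. Itga7 lies above the controls as CPM and below them as a ratio, Lamb3 lies below them in both, and Itgb4 and Lama3 overlap the controls as ratios.

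Across all tested genes 3.37% were called lower. Of the partners of the hemidesmosome, 2 of 6 fell, 0 rose and 4 did not pass (median log2 fold change -0.27). Krt14, the basal keratin whose filaments anchor there and which is also among the epithelial markers, was at 392.7, 430.8 and 378.1 CPM in controls and 205.2, 226.0 and 243.8 CPM after deletion (log2 fold change -0.83, edgeR adjusted p = 0.000304). Plec, which links keratin filaments to integrin beta 4 and is made in many tissues, was at 292.1, 294.0 and 266.5 CPM and 225.1, 245.5 and 213.1 CPM (-0.32, edgeR adjusted p = 0.0150). It did not pass without 213 or 208 (-0.31 to -0.29, edgeR adjusted p = 0.0699 to 0.0994) or with sex as a covariate (edgeR adjusted p = 0.271).

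Of the 2 muscle chains, 1 rose and 1 did not pass, where 3.65% of all tested genes were called higher. Itga7 (chromosome 10, 128933818 to 128958282, plus strand), the laminin receptor chain of muscle fibres, was at 4.99, 4.63 and 4.22 CPM in controls and 6.73, 7.08 and 6.38 CPM after deletion. Every deletion library lay above every control. Its log2 fold change was 0.54 ± 0.14 (SE; edgeR adjusted p = 0.0372), and 0.67 with sex as a covariate (edgeR adjusted p = 0.166). The call was lost without 212, 213, 220, 208 or 211 (0.49 to 0.60, edgeR adjusted p = 0.0588 to 0.134). Lama2, the alpha chain of laminin-211, was at 44.7, 48.5 and 56.1 CPM in controls and 50.7, 51.8 and 49.98 CPM after deletion, inside the range of the controls. Its log2 fold change was 0.03 (95% interval -0.15 to 0.20, edgeR adjusted p = 0.877). Whether the changes of Itga7 and Lama2 differ from each other was not tested.

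Muscle markers rose over the same libraries. The summed level of 10 skeletal muscle markers was 490 to 539 CPM in controls and 845 to 1388 CPM after deletion, a ratio of means of 2.12, with 6 of 10 higher, 0 lower and none at 0. As a share of this sum, Itga7 was at 0.946%, 0.944% and 0.783% in controls and 0.628%, 0.510% and 0.756% in deletion libraries, and Lama2 at 8.48% to 10.4% and 3.73% to 5.92%. Both shares were thus lower in every deletion library (differences of the log2 ratio -0.51 and -1.02, exact permutation p = 0.1 for each). As CPM, Lama2 hardly differed (log2 fold change 0.03), so its lower share reflects the higher marker sum. A level per muscle cell cannot be read from these shares. Itgb1bp2, which encodes melusin, a muscle protein that binds the tail of integrin beta 1, was at 3.89, 5.36 and 5.17 CPM in controls and 10.97, 14.33 and 7.81 CPM after deletion (2.30-fold higher, edgeR adjusted p = 0.0119). The gene missed the threshold without 213 or 208 (log2 fold changes 1.20 to 1.28, edgeR adjusted p = 0.0534 to 0.0538) or with sex as a covariate (1.09, edgeR adjusted p = 0.218). Of 16 genes of the dystroglycan complex, the other laminin receptor of muscle, 1 rose and 0 fell (median log2 fold change 0.03). Across all tested genes 3.65% were called higher and 3.37% lower.

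Mesenchymal chains fell in 2 of 8 genes, 0 rose and 6 did not pass (median log2 fold change -0.16). The share of all tested genes called lower was 3.37%. Itga10 (chromosome 3, 96645584 to 96664519, plus strand), a collagen receptor chain known from cartilage, was at 25.8, 37.7 and 31.9 CPM in controls and 11.4, 11.4 and 12.4 CPM after deletion. The deletion libraries lay close together and under each control. The change on the log2 scale was -1.44 ± 0.13 (SE; edgeR adjusted p = 0.000357), and -1.44 with sex as a covariate (edgeR adjusted p = 0.0174). Markers of cartilage went the other way. The 5 used (Col2a1, Matn1, Acan, Sox9 and Col9a1) summed to 253 to 384 CPM in controls and 603 to 676 CPM after deletion. They were called higher in 3 of 5 cases, where 3.65% of all tested genes were. The part of the cartilage markers in the level of Itga10 was not tested.

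Itga11, the collagen receptor chain of fibroblasts, was at 18.6, 26.2 and 17.0 CPM in controls and 6.73, 9.68 and 12.5 CPM after deletion. The groups did not overlap, and both were spread widely. The log2 fold change was -1.10 (95% interval -1.73 to -0.46), and it did not pass (edgeR adjusted p = 0.0635, or 0.382 with sex as a covariate). It passed without deletion 221 (-1.33, edgeR adjusted p = 0.0360), with limma voom (adjusted p = 0.0226), with the DESeq2 Wald test (adjusted p = 3.38e-06) and with edgeR's non-robust fit (adjusted p = 0.0213). Itga1, a collagen and laminin receptor chain, was at 13.5 to 14.9 CPM and 12.2 to 13.5 CPM after deletion (log2 fold change -0.12, edgeR adjusted p = 0.529). Per kilobase of exon, the 4 collagen-binding alpha genes (Itga1, Itga2, Itga10 and Itga11) together had 12.2 ± 2.09 CPM in controls and 5.90 ± 0.54 CPM after deletion (SD, n = 3 each), a description with no test. Itga10 made up 50.2% of that level in controls and 38.4% in deletion libraries.

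Itga8 (chromosome 2, 12106632 to 12301922, minus strand), a receptor chain that binds the RGD motif of fibronectin and of nephronectin, was at 70.0, 80.03 and 73.8 CPM in controls and 55.1, 50.7 and 47.7 CPM after deletion. Each deletion library was under every control. Its log2 fold change was -0.54 ± 0.07 (SE; edgeR adjusted p = 0.00167), and -0.53 with sex as a covariate, which did not pass (edgeR adjusted p = 0.0521). The antisense gene E030013I19Rik lies over Itga8 on the other strand, at a mean of 4.13 CPM in controls and 2.91 CPM after deletion. Without a known strand setting its reads cannot be told apart from those of Itga8. Other members are overlapped too, with control and deletion means given here. Pelo lies over Itga1 on the same strand (21.2 and 19.4 CPM). Gm10157 (27.7 and 27.3 CPM) and Gm2415 (29.2 and 30.8 CPM) lie over Itga9 on the other strand. So does G0s2 over Lamb3 (6.09 and 8.89 CPM). Npnt, the gene of nephronectin, was at 217.7, 261.5 and 278.1 CPM in controls and 113.6, 149.4 and 203.5 CPM after deletion, without overlap and without passing (log2 fold change -0.70, edgeR adjusted p = 0.193). It passed without deletion 221 (-0.94, edgeR adjusted p = 0.0484) and with limma voom. The fibronectin receptor chain Itga5 (log2 fold change 0.06, 95% interval -0.05 to 0.18), the widely used chain Itgav (-0.20, edgeR adjusted p = 0.163), its partner Itgb5 (0.03, 95% interval -0.16 to 0.22) and the laminin-411 chain Lama4 (-0.10, edgeR adjusted p = 0.420) did not pass. Itgav did pass without control 212 (-0.28, edgeR adjusted p = 0.0363).

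**Figure D3:**
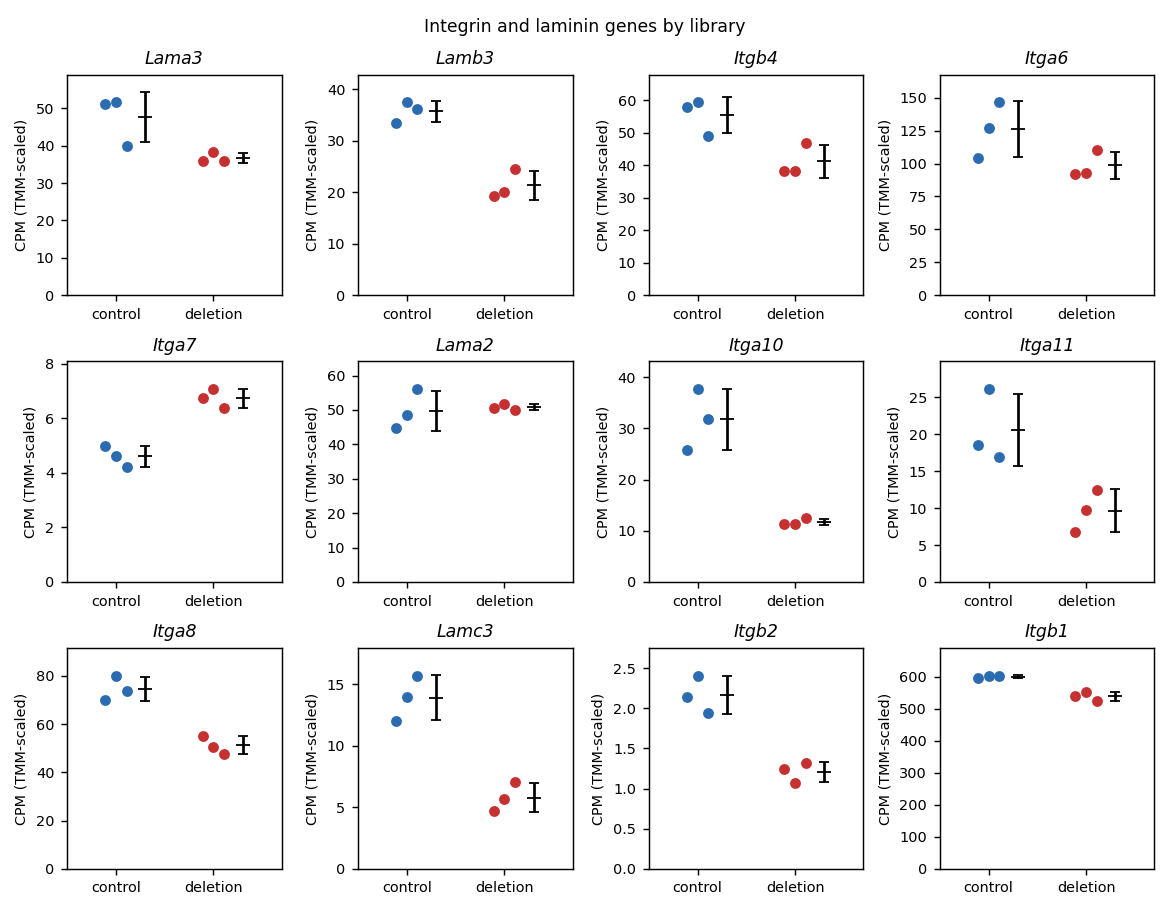
CPM (TMM-scaled) of 12 integrin and laminin genes in each library, with axes from 0. Blue points are control libraries (212, 213, 220 from left), red points deletion libraries (208, 211, 221 from left), and bars give the mean and SD of 3 libraries. Groups overlap for Itga6 and Lama2 and for no other gene shown, and the deletion libraries of Itga10 sit between 11.4 and 12.4 CPM, under the lowest control at 25.8 CPM.

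Among the chains of broad or other use, 1 of 9 fell and 0 rose (median log2 fold change -0.07). The share of all tested genes called lower was 3.37%. Lamc3 (chromosome 2, 31887291 to 31946539, plus strand), the third gamma chain, was at 12.02, 14.0 and 15.7 CPM in controls and 4.67, 5.67 and 7.03 CPM after deletion. All 3 deletion libraries were under the lowest control. The change on the log2 scale was -1.26 ± 0.16 (SE; edgeR adjusted p = 0.00163), and -1.44 with sex as a covariate (edgeR adjusted p = 0.0174). The chains that most laminin trimers share, Lamb1 and Lamc1, had log2 fold changes of 0.06 (95% interval -0.06 to 0.18) and -0.13 (-0.29 to 0.02), and neither passed (edgeR adjusted p = 0.602 and 0.297). Lamb2, the beta chain of vessels and the neuromuscular junction, was at 150.0, 154.1 and 154.6 CPM in controls and 130.8, 119.6 and 150.9 CPM after deletion (-0.19, edgeR adjusted p = 0.157). It passed without deletion 221 (-0.29, edgeR adjusted p = 0.00883).

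Itgb1, the beta chain shared by most receptors for laminin, collagen and fibronectin, was at 597.0, 603.1 and 603.2 CPM in controls and 539.4, 554.1 and 525.2 CPM after deletion. The groups did not overlap, but the difference was small and did not pass (1.11-fold, log2 fold change -0.16, 95% interval -0.27 to -0.04, edgeR adjusted p = 0.0962). The DESeq2 Wald test called it (adjusted p = 0.0177). Itga4 and Itga9, alpha chains that bind fibronectin and tenascin among other ligands, had log2 fold changes of 0.27 and 0.11 (edgeR adjusted p = 0.193 and 0.430). The TGF-beta-activating chain Itgb8 (-0.07) and the early embryonic laminin chain Lama1 (-0.04) did not pass, and in both the deletion libraries spanned the controls.

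Of the 4 blood chains, Itgb2 fell and Itga2b, Itgb3 and Itgb7 did not pass, where 3.37% of all tested genes were called lower. Itgb2 (chromosome 10, 77530252 to 77565708, plus strand), the beta chain of leukocytes, was at 2.15, 2.405 and 1.94 CPM in controls and 1.24, 1.07 and 1.32 CPM after deletion, 49 to 119 counts a library. The groups were apart, and the adjusted p lay just under the threshold (log2 fold change -0.84 ± 0.23, SE; edgeR adjusted p = 0.0495). Leaving out any of the 6 libraries ended the call (-0.91 to -0.75, edgeR adjusted p = 0.0519 to 0.197), as did sex as a covariate (-0.68, edgeR adjusted p = 0.356), limma voom and a non-robust fit. The leukocyte markers Ptprc, Csf1r, Cd68, Adgre1 and Cx3cr1 summed to 63.3 to 71.4 CPM in controls and 57.2 to 64.8 CPM after deletion, 0 of 5 passed and none was at 0. Their part in the level of Itgb2 was not tested. The platelet chain Itga2b was at 3.68 to 4.20 and 2.98 to 4.42 CPM, its partner Itgb3 at 12.9 to 13.9 and 12.0 to 15.5 CPM, and the lymphocyte chain Itgb7 at 1.41 to 2.06 and 1.06 to 2.30 CPM.

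Per kilobase of exon, levels of the 32 genes spanned a wide range. Itgb1 had the highest level in controls, 147.3 ± 0.87 CPM per kilobase (SD, n = 3), followed by Itgb5 at 73.6 ± 1.91, Lamb1 at 33.0 ± 1.21 and Lamc1 at 32.4 ± 3.03. Lamb1 and Lamc1 lay within their spread of each other. Lama4 was the highest laminin alpha chain, at 17.6 ± 1.43 CPM per kilobase, and Lama5 came next at 10.3 ± 1.07. Of the laminin-332 chains, Lamb3 stood at 5.41 ± 0.31 and Lama3 at 4.43 ± 0.62 CPM per kilobase in controls, and at 3.23 ± 0.43 and 3.41 ± 0.13 in deletion libraries. The level of Lamb3 was thus above that of Lama3 in all 3 controls, and in deletion libraries above it in 1 of 3. That order depends on the exon lengths used, 6612 bases for Lamb3 and 10745 for Lama3. Without division by length, mean CPM was lower for Lamb3 than for Lama3 (35.7 against 47.6 in controls, 21.4 against 36.7 after deletion). Itgb6 was the lowest gene in controls, at 0.507 ± 0.014 CPM per kilobase, and Itgb2 in deletion libraries, at 0.397 ± 0.041.

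**Figure D4:**
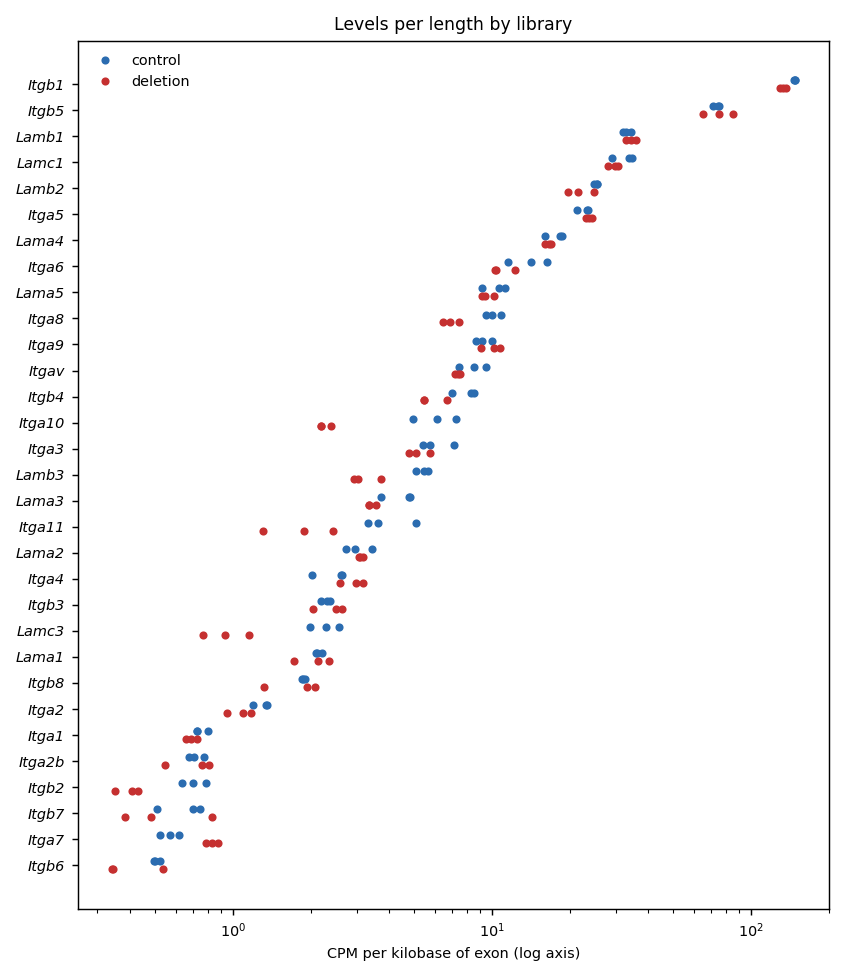
Level of each of 31 of the genes in each library, as CPM per kilobase of exon on a log axis, ordered by the control mean. Blue points are control libraries and red points deletion libraries. Itgb1 is at the top near 147 in controls, and the red points of Itga10, Itga11, Lamc3 and Itgb2 lie left of the blue ones.

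Cytoplasmic partners that connect integrins to the cytoskeleton changed in both directions. Of 27 measured, 2 rose and 3 fell (median log2 fold change -0.02), where 3.65% of all tested genes were called higher and 3.37% lower. Ptk2b, a kinase related to focal adhesion kinase, was at 10.6, 10.9 and 7.17 CPM in controls and 3.64, 4.29 and 3.86 CPM after deletion (2.44-fold lower, edgeR adjusted p = 0.00232, or 0.0659 with sex as a covariate). Fermt1, the kindlin of epithelia, fell from 17.1, 21.4 and 21.3 CPM to 13.8, 14.6 and 16.7 CPM after deletion (-0.41 on the log2 scale, edgeR adjusted p = 0.0495). The call was lost without 213, 220, 208 or 211 (-0.39 to -0.35, edgeR adjusted p = 0.119 to 0.210), with sex as a covariate (-0.51, edgeR adjusted p = 0.169), with limma voom (adjusted p = 0.0742) or with edgeR's non-robust fit (adjusted p = 0.0630). Rsu1, a component of the complex of integrin-linked kinase, fell 1.21-fold (edgeR adjusted p = 0.0357), but not without 212, 213, 208 or 211 (log2 fold changes -0.31 to -0.22, edgeR adjusted p = 0.0902 to 0.142) or with sex as a covariate (edgeR adjusted p = 0.346). Kank1, a talin-binding protein at the rim of adhesions, rose 1.34-fold (edgeR adjusted p = 0.0139, or 0.0300 with sex as a covariate), but did not pass without 213, 208 or 211 (log2 fold changes 0.40 to 0.45, edgeR adjusted p = 0.0577 to 0.0672). Itgb1bp2 was the other riser.

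Of 17 other basement membrane genes, 2 fell and 0 rose (median log2 fold change -0.16), where 3.37% of all tested genes were called lower. Hspg2, which encodes perlecan, the heparan sulfate proteoglycan of basement membranes, was at 442.9, 510.1 and 450.0 CPM in controls and 329.1, 382.3 and 393.5 CPM after deletion (1.27-fold lower, edgeR adjusted p = 0.0258). Col15a1, a collagen beneath basement membranes, fell 1.19-fold (edgeR adjusted p = 0.0202). Hspg2 did not pass without 213, 208 or 211 (log2 fold changes -0.37 to -0.27, edgeR adjusted p = 0.0629 to 0.133), nor Col15a1 without 213, 220, 208 or 211 (-0.27 to -0.21, edgeR adjusted p = 0.0502 to 0.107), and neither did with sex as a covariate (edgeR adjusted p = 0.283 and 0.152). Of 14 tested genes of integrin ligands outside the basement membrane, 2 fell and 0 rose (median log2 fold change -0.18). The share of all tested genes called lower was again 3.37%. Tgfb1, whose latent form binds integrins of the alpha v group, was at 28.0, 38.9 and 37.3 CPM in controls and 15.9, 18.3 and 22.8 CPM after deletion (1.83-fold lower, edgeR adjusted p = 0.0231). The gene missed the threshold without 213, 220, 208 or 211 (log2 fold changes -0.85 to -0.76, edgeR adjusted p = 0.0539 to 0.0991), with no filter on low counts (edgeR adjusted p = 0.0516) or with sex as a covariate (-0.97, edgeR adjusted p = 0.162). Cyr61, a matricellular integrin ligand, fell 1.32-fold (edgeR adjusted p = 0.0492, or 0.0132 with sex as a covariate), and did not pass without 213, 220, 208, 211 or 221 (log2 fold changes -0.47 to -0.25, edgeR adjusted p = 0.0666 to 0.172), with limma voom (adjusted p = 0.0733) or with edgeR's non-robust fit (adjusted p = 0.0610).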

How the data were processed

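Poly(A) RNA from palatal shelves was sequenced in 3 control and 3 deletion libraries. The authors deposited 1 table of estimated counts (expected counts) per gene symbol, not normalized, in which 23.0% to 23.8% of values per library are not whole. The submitters' processing notes name the build mm10, STAR 2.4.1d, CASAVA 1.8.2 and Partek. What each did, the annotation and the strand setting are not given there. Column names give the group and a number, but not the labelled replicate.

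Counts were rounded to whole numbers and filtered with filterByExpr (minimum count 10, minimum total 15), leaving 19284 genes. Groups were compared by the quasi-likelihood F test of edgeR 4.0.16 (R 4.3.3, TMM, robust=TRUE, no covariates) with Benjamini-Hochberg adjustment over all tested genes at 0.05, tested on simulated data. SE is the fold change over the square root of F. Alternatives were DESeq2 size factors, the DESeq2 1.42.0 Wald test, limma 3.58.1 voom, 2 other filters, robust=FALSE, embryo sex (Xist above 1000 CPM) as a covariate, and each library left out. Exon lengths (union of exons) and positions came from GENCODE M21 (GRCm38, the assembly of mm10).

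Members, roles and lists were chosen with earlier results of these data known. Named genes are all 32 members and, from each partner list, up to 6 past the threshold. Npnt, the motifs, and the levels summed over chain families were chosen after values were seen. Of the genes tested, 1 of the 32 members and 1 partner gene enter the counts but are not reported here.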

Additional observations from a re-analysis of the deposited data

How the results depend on the processing

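The 32 genes gave 8 lower and 1 higher call. With embryo sex as a covariate the counts were 4 lower and 0 higher, where 0.669% of all tested genes were called. With 1 library left out, they ranged from 5 to 8 lower and from 0 to 1 higher, where 1.81% (without control 213) to 9.45% (without deletion 221) of all tested genes were called. The other 6 alternatives gave 7 to 11 lower and 1 higher, where 6.07% (limma voom) to 11.2% (DESeq2 Wald test) of all tested genes were called, against 7.01% in the reported fit. No called gene changed direction under any of the 13 alternatives, and 24 of the 32 genes kept their sign in all of them. The other 8 changed sign and were called in none. With embryo sex in the fit, values on the log2 scale were -0.14 for Lama2, 0.15 for Itgb7 and -0.0019 for Itga9. With 1 library left out they ranged from -0.042 to 0.12 for Lama2, -0.074 to 0.12 for Itgb5, -0.14 to 0.13 for Itga2b, -0.014 to 0.16 for Itgb3, -0.59 to 0.0081 for Itgb7, -0.21 to 0.10 for Itgb8 and -0.15 to 0.068 for Lama1. Without Krt14, the most abundant epithelial marker, the difference of the log2 ratio to epithelial markers went from 0.066 to -0.043 for Itgb4 and from -0.25 to -0.36 for Lamb3. No paired analysis was possible because the columns carry library numbers that no label gives, and no replicate numbers.

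In libraries of 44919889 counts or more, the lowest genes described, Itgb2 and Itgb7, had 49 to 119 counts, which limits their precision.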
